A study of Mus musculus with 6 samples.

Results

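Ccl1, Ccl17 and Ccl22 are 3 chemokine ligands, and Ccr4, Ccr7 and Ccr8 are 3 chemokine receptors that sit on the cells such ligands attract or that travel with them. These 6 genes were taken by symbol from the 31053 genes of a single-cell RNA-seq experiment on YUMM2.1, a mouse melanoma line that carries an activating Braf allele, has lost 1 copy of Cdkn2a and holds a stabilised β-catenin. The YUMM2.1 cells carried a lentiviral empty vector (EV) or the same vector with wild-type Bmal1 (WT), the transcription factor at the centre of the circadian clock. The label gives YUMM2.1 as the source of both libraries, and each vector line was a sorted GFP-positive pool. Each library held 3 hashtagged replicates, EV h1, h7 and h8 and WT h3, h5 and h9. Another library, labelled Bmal1 bHLH, held the WT values again in 3 of 3 files and was not counted. The labels do not say that the hashtags mark separate animals, so every p-value below measures the spread between these samples, which may be technical.

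CCL17 and CCL22 are ligands of CCR4, a receptor of T helper 2 cells, regulatory T cells and skin-homing T cells. CCL1 is a ligand of CCR8, which marks regulatory T cells inside many tumours. CCR7 does not bind these ligands. It follows CCL19 and CCL21, and takes mature dendritic cells and naive T cells to lymph nodes. Dendritic cells make CCL22 and CCL17 as they mature, and activated T cells can make CCL1.

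In the GENCODE vM21 annotation of GRCm38 (the mm10 build of the deposited files), Ccl22 lies on chromosome 8 from 94745590 to 94751699 and Ccl17 from 94810453 to 94812036, both on the plus strand. The 2 ligands are 58753 bases apart, with 2 genes between them, Cx3cl1 and Gnb1-ps3. Ccl1 lies on the minus strand of chromosome 11 (82176657 to 82305690) and Ccr7 on the minus strand of the same chromosome (99144196 to 99155077). Ccr4 lies on the minus strand of chromosome 9 (114490316 to 114504916) and Ccr8 on its plus strand (120092114 to 120094906). The promoters of the neighbours Ccl17 and Ccl22 are shown because the data below separate the cells that hold each of them. Each is from the RefSeq promoter table for GRCm38.p6 and runs from 250 bases before to 50 bases after the start that table uses, which for Ccl22 lies inside the bounds given above. Both are printed 5′ to 3′ on the plus strand, and the capitals mark a match to TTCNNNNGAA, the spaced letters that STAT6 is known to bind.
Ccl17 promoter, chr8:94810203-94810502: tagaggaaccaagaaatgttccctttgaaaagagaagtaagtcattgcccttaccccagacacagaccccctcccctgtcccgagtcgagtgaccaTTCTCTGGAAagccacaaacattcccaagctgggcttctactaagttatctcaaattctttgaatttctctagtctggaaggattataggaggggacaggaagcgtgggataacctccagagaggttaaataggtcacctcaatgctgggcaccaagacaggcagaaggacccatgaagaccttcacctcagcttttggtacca
Ccl22 promoter, chr8:94745434-94745733: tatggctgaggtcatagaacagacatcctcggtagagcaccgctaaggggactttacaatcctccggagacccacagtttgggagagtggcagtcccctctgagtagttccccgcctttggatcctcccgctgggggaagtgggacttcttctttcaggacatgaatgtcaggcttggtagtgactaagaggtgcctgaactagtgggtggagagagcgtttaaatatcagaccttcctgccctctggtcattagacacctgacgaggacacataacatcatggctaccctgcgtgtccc
Both strands were searched for 3 motifs, the NF-kB motif, TTCNNNNGAA and the E-box CACGTG. Over all 32851 promoters of this length, 4.51% hold the NF-kB motif, 6.95% hold TTCNNNNGAA and 7.15% hold CACGTG. Of the 5 members with an entry, Ccl17 alone held a match, TTCTCTGGAA from base -154 to base -145 relative to the start, which overlapped no other motif. Ccr7 is named only. A match describes letters in this window and not a site that is used.

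After filtering, the EV library held 3978 cells of 4147 barcodes and 33907757 gene UMIs (unique transcript molecules), and the WT library 2386 cells of 2785 barcodes and 38511902 UMIs. The median cell had 5094 UMIs in EV and 7570.5 in WT. A single hashtag could be called in 3222 EV and 1621 WT cells, and 5 barcodes occurred in both libraries. Although the source label is a melanoma line, 79.7% of EV cells and 56.2% of WT cells fell in named immune classes. The vectors were put into YUMM2.1 cells, so for the immune classes EV and WT name the library and not a vector in those cells. Clusters left unnamed held 612 EV and 710 WT cells and enter neither the immune shares nor the melanoma-like counts. Among them, a cluster of 435 EV and 207 WT cells raised 10 of 13 macrophage or monocyte markers. Another, of 53 EV and 185 WT cells, held 658 and 958 Sox10 UMIs. Melanoma-like cells, 53 in EV and 121 in WT, held Sox10 (500 and 994 UMIs) but only 1 and 5 UMIs over 5 pigment genes (Tyr, Tyrp1, Dct, Pmel and Mlana). Arntl, the gene of Bmal1, stood at 64.1 CPM (95% Poisson interval 53.1 to 76.7) in EV and 69.5 CPM (61.8 to 77.9) in WT melanoma-like cells, and these intervals overlap. No source used here says whether the 3′ tag reads the vector transcript, so this gene checks neither label. CPM is the UMI count of the gene divided by all gene UMIs of the same cells and multiplied by 1000000. All intervals on pooled cells, and all floors, cover counting error only.

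Cells were clustered without the 6 genes, and clusters were named from marker lists. The mature dendritic cell-like class held 172 EV and 115 WT cells and raised 10 of its 10 markers, with Fscn1 and Cacnb3 first. The cDC2-like class (conventional dendritic cells of type 2) joined a cluster led by Mgl2 (118 and 48 cells) and one led by Cd209a (111 and 26). The cDC1-like class held 70 and 115 cells, the plasmacytoid class 48 and 11, and the T cell-like class 1201 and 399. T cells with at least 1 UMI of Foxp3, the master regulator of regulatory T cells, numbered 88 in EV and 45 in WT. The other T cells numbered 1113 and 354, or 1022 and 332 without the cluster led by Penk, Il10 and Il2ra. That cluster (152 and 51 cells) also lists Foxp3 among its leading genes, so other T cells hold part of a cluster with regulatory T cell genes. Foxp3 T cells were deeper, with a median of 5804.5 UMIs in EV and 7477 in WT against 4090 and 6330 in other T cells.

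Ccl22 was a transcript of mature dendritic cells in both groups. That class gave 87.8% of all Ccl22 UMIs in EV and 93.9% in WT. Its pooled level was 3098 CPM (3016 to 3181) in EV and 4333 CPM (4214 to 4455) in WT. cDC1-like cells stood at 192 and 119 CPM and cDC2-like cells at 122 and 78.9 CPM. Mast cell or basophil-like cells stood at 383 CPM (278 to 514) in EV, with all 44 UMIs in 1 of 18 cells, and held 1 UMI in WT. A Ccl22 UMI was found in 94.8% of EV and 93.0% of WT mature dendritic cells, against 1.34% and 0.743% of NK cell-like cells, which should lack the gene (median 4103 and 6025.5 UMIs, against 7803.5 and 6344 in mature dendritic cells). In Foxp3 T cells Ccl22 had 15 UMIs in EV and 0 UMIs in WT, where 0 UMIs allow up to 4.89 CPM.

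Ccl17 was spread over more classes than Ccl22. cDC2-like cells gave 64.6% of its UMIs in EV and 44.0% in WT, mature dendritic cells 19.5% and 35.0%, and macrophage or monocyte-like cells 8.99% and 13.9%. Within the cDC2-like class the Mgl2 cluster carried it, at 2595 ± 1353 CPM in EV and 2198 ± 658 CPM in WT (mean ± SD, n = 3 replicates). The Cd209a cluster stood at 432 ± 305 CPM in EV and 497 ± 320 CPM in WT, below every replicate of the Mgl2 cluster. In EV the order ran Mgl2 cluster, mature dendritic (1043 ± 384 CPM), cDC1-like (683 ± 269 CPM), Cd209a cluster and macrophage or monocyte-like (359 ± 308 CPM). Each neighbouring pair in that order overlapped in replicate levels. In WT mature dendritic cells stood at 1594 ± 686 CPM, above the Cd209a cluster in every replicate and overlapping the Mgl2 cluster, while cDC1-like cells stood at 297 ± 109 CPM and overlapped the Cd209a cluster and the macrophage or monocyte-like cells. In the macrophage cluster led by Retnla and C1qa the gene was held by few cells, 17 of 123 in EV and 21 of 117 in WT, and 5 cells carried 90.2% and 69.0% of its UMIs there. NK cell-like cells held a Ccl17 UMI in 0.267% and 0.990% of cells.

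**Figure D1:**
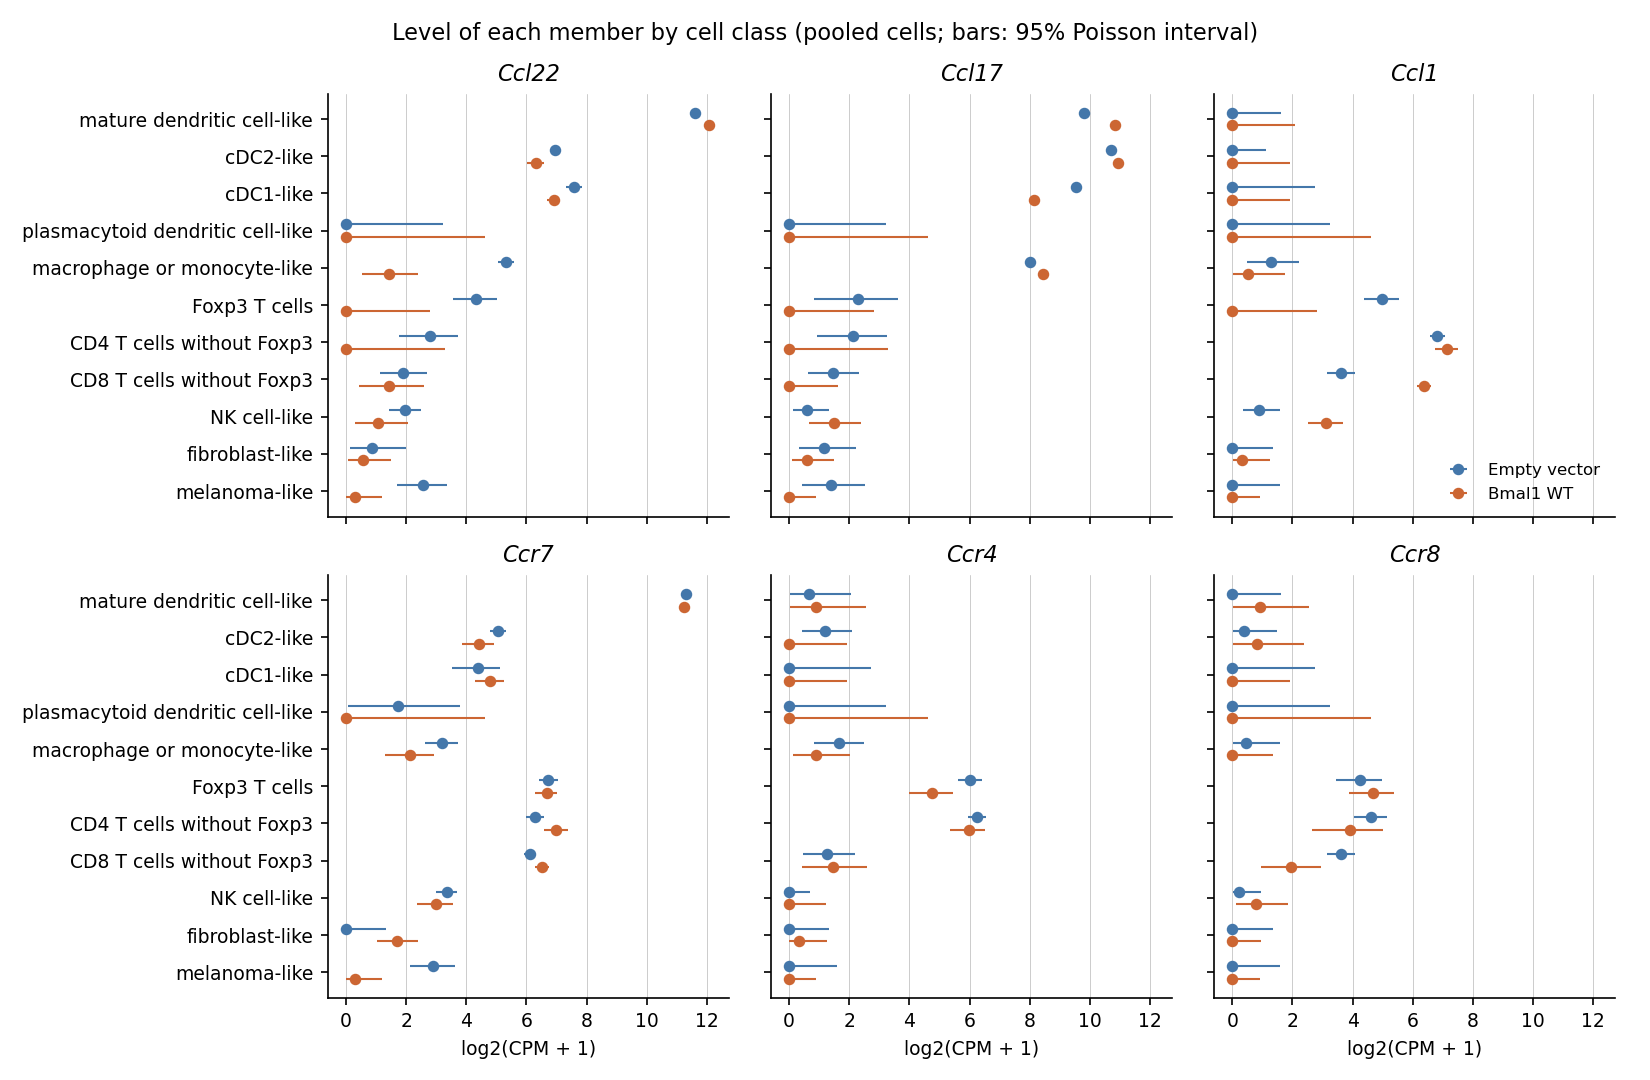
Level of each of the 6 genes by cell class, as log2(CPM + 1) on the horizontal axis, over pooled cells of EV (blue) and WT (orange), with bars for the 95% Poisson interval. Ccl22 and Ccr7 stand out in mature dendritic cell-like cells, Ccl17 reaches its higher levels in mature dendritic and cDC2-like cells, and Ccl1, Ccr4 and Ccr8 lie in T cells.

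The balance of the 2 neighbouring ligands differed between these classes in every replicate. Ccl17 made up 20.7%, 21.9% and 27.4% of the summed Ccl17 and Ccl22 UMIs in mature dendritic cells of EV h1, h7 and h8, and 35.1%, 25.9% and 19.8% in WT h3, h5 and h9. In the Mgl2 cluster the same share was 95.9%, 93.0% and 97.3% in EV and 93.4%, 99.7% and 99.2% in WT. No replicate of one class came near those of the other. UMIs of a 3′ assay carry no length term, so the 2 genes can be set side by side here.

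Single cells showed the same split. Of mature dendritic cells with a Ccl17 UMI, 97.1% in EV and 97.6% in WT also held Ccl22, and Ccl22 was held by 91.4% and 81.8% of those without Ccl17. In the Mgl2 cluster 37.0% of Ccl17 cells in EV and 28.2% in WT also held Ccl22. The median Ccl17-positive cell of the Mgl2 cluster had 26.5 Ccl17 UMIs in EV and 46.0 in WT, against 5.0 and 6.0 in mature dendritic cells. Cells with both ligands were deeper in the mature dendritic class (median 11984 and 10094.5 UMIs) than the rest of it (4180.0 and 1532.0), so the joint shares also move with depth. Both ligands were uneven among cells: the top 10% of mature dendritic cells by Ccl17 held 66.3% of its UMIs in EV and 67.4% in WT, and for Ccl22 46.5% and 53.1%.

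**Figure D2:**
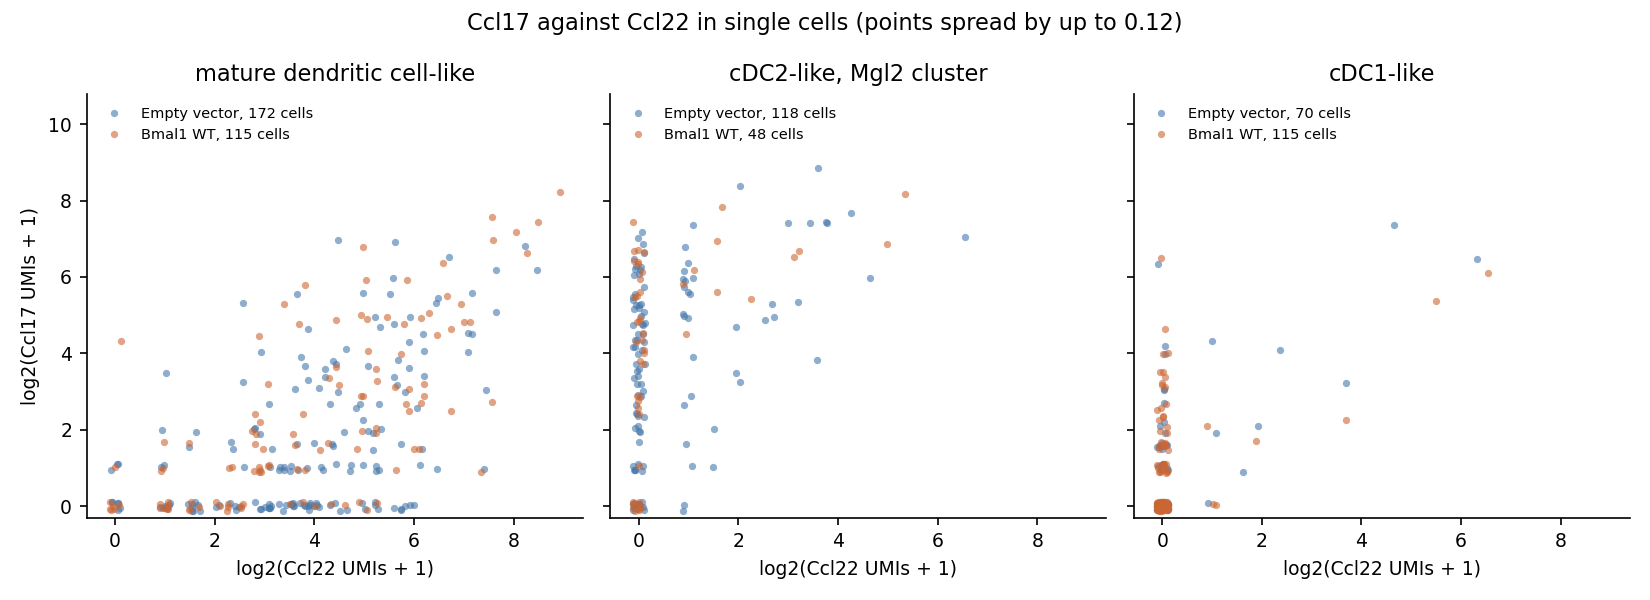
Ccl17 against Ccl22 UMIs, both as log2(UMIs + 1), in single cells of EV (blue) and WT (orange), 1 point a cell with a small random spread. Mature dendritic cell-like cells lie along the Ccl22 axis and the diagonal, while Mgl2 cluster cells stack at high Ccl17 with Ccl22 mostly at 0 or 1 UMI, and most cDC1-like cells hold neither.

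Ccr7, the receptor that mature dendritic cells follow to lymph nodes, came 85.5% (EV) and 86.6% (WT) from the mature dendritic class. Its pooled level there was 2556 CPM (2482 to 2632) in EV and 2398 CPM (2309 to 2489) in WT, against 32.4 and 20.3 CPM in cDC2-like cells. Of cells with Ccl22 in that class, 87.7% in EV and 85.0% in WT also held Ccr7. Ccr4 and Ccr8 were near 0 in all dendritic classes: mature dendritic cells held 1 Ccr4 UMI in each library and 0 and 1 Ccr8 UMIs.

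EV and WT were compared first within mature dendritic cells, over 3 replicate sums each. Ccl22 stood at 2602.5, 5150.2 and 2662 CPM in EV h1, h7 and h8, and at 4272, 4392 and 3821 CPM in WT h3, h5 and h9. The groups overlapped, since EV h7 lay above all WT replicates. The log2 fold change, WT over EV here and below, was 0.27 ± 0.22 (SE; edgeR quasi-likelihood test, adjusted p = 0.945). Ccl17 stood at 678, 1444 and 1006 CPM in EV and at 2309.6, 1533 and 941 CPM in WT. WT h3 and h5 were above all EV replicates and WT h9 was within their range. Its log2 fold change was 0.64 ± 0.29 (edgeR adjusted p = 0.938). Ccr7 stood at 2563, 2741 and 2614 CPM in EV and at 2401, 2521 and 2437 CPM in WT, so the groups did not overlap, with a log2 fold change of -0.10 ± 0.12 (edgeR adjusted p = 0.975).

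None of these 3 members passed in mature dendritic cells, where edgeR called 0% of the 7774 genes tested at an adjusted p of 0.05 and DESeq2 called 2 genes. At an unadjusted p of 0.05 the test called 1 of the 3 members and 5.20% of all genes (404). Replicate levels did not overlap for 1 of the 3 members and for 12.0% of all genes. The other 3 members had too few UMIs there to be tested. Macrophage or monocyte markers, summed over 13 genes, ran from 1.84 to 41.0 CPM in EV and from 13.2 to 1946 CPM in WT mature dendritic cells, with 12 genes detected and Ms4a7 at 0, and the groups overlapped. Mast cell or basophil markers, 5 of 9 genes detected with Fcer1a, Gata2, Mcpt8 and Cyp11a1 at 0, ran from 38.3 to 76.1 CPM in EV and from 5.84 to 29.1 CPM in WT without overlap. The part of either list in the ligand levels was not tested.

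The wider dendritic pool gave no call either. Over all dendritic classes the log2 fold changes were 0.30 ± 0.21 for Ccl22, -0.20 ± 0.39 for Ccl17 and -0.10 ± 0.17 for Ccr7 (edgeR adjusted p = 0.531, 0.859 and 0.840), with 0.378% of 10569 genes called. The make-up of that pool differed, as cDC1-like cells were 1.01% to 1.64% of cells in EV replicates and 5.25% to 9.20% in WT replicates. In cDC2-like cells, a comparison added after the class levels were seen, Ccl17 stood at 676, 2169 and 2539.5 CPM in EV and 2024, 2327 and 1219 CPM in WT. The ranges overlapped, with a log2 fold change of 0.06 ± 0.37 (edgeR adjusted p = 0.998). Ccl22 and Ccr7 in these cells differed by -0.94 ± 0.71 and -0.89 ± 0.87 (adjusted p = 0.842 and 0.885), with 0% of 9116 genes called by edgeR, 655 genes at an unadjusted p of 0.05 and 10 genes called by DESeq2.

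**Figure D3:**
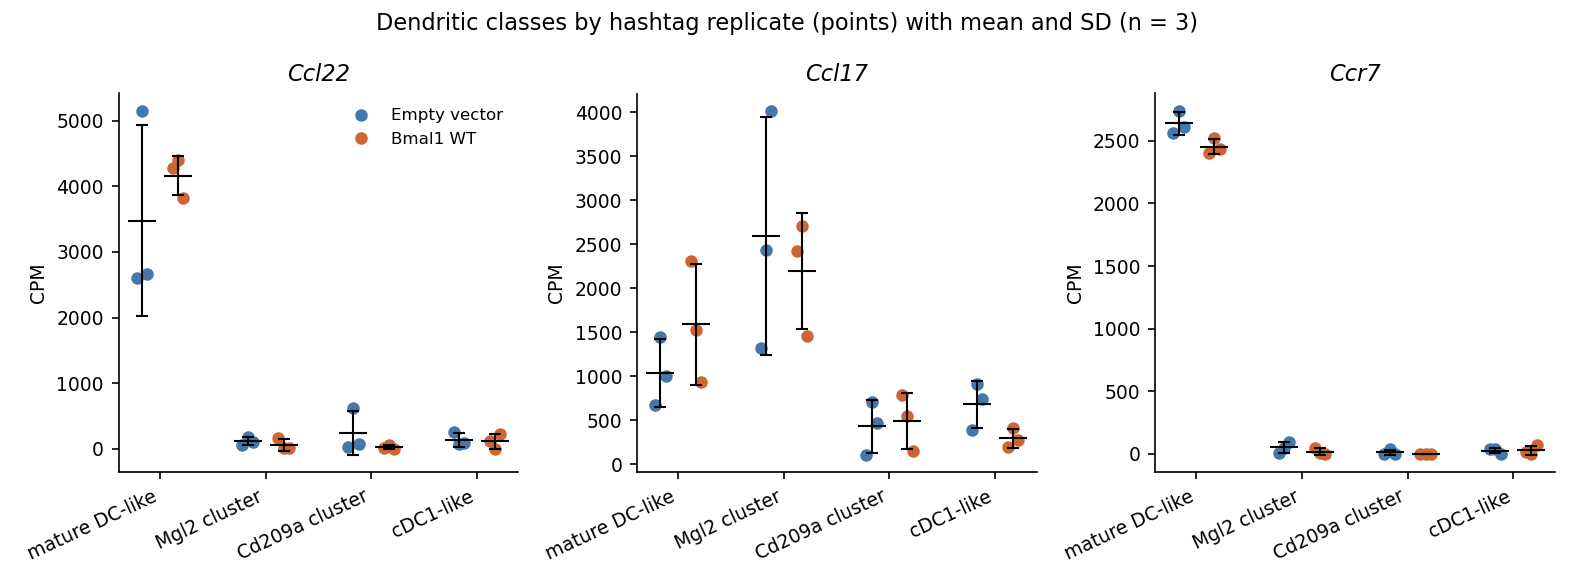
CPM of Ccl22, Ccl17 and Ccr7 by hashtag replicate (points) with the mean and SD (n = 3) in 4 dendritic groups of cells, EV in blue and WT in orange. Ccl22 and Ccr7 are highest in mature dendritic cells of the 4 groups, and Ccl17 is higher in the Mgl2 cluster than in the Cd209a cluster in all replicates.

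No gene of the lists of related genes passed in mature dendritic cells. Of 17 other CC chemokines 6 were tested and none passed (median log2 fold change 1.11, against -0.07 over all genes). Ccl5, a chemokine with far more UMIs there (12560), differed by -0.03 ± 0.22, while Ccl4 (71 UMIs) differed by 1.10 ± 1.03. Of 12 other CC and atypical receptors 5 were tested and none passed (median 0.75), with Ccrl2 at 0.18 ± 0.28. Of 25 genes of dendritic cell activation 24 were tested and none passed (median -0.02). Fscn1, which bundles actin in mature dendritic cells, differed by 0.07 ± 0.17, and Cd83, a maturation marker, by -0.32 ± 0.14 (edgeR adjusted p = 0.938).

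T cells held the receptors of these ligands. Of all Ccr4 UMIs 93.2% in EV and 86.8% in WT were in T cell-like cells, as were 94.4% and 80.0% of Ccr8 UMIs. Both receptors were sparse: T cell-like cells had 178 Ccr4 UMIs in EV and 46 in WT, and 102 and 28 Ccr8 UMIs. NK cell-like cells, which resemble T cells in many genes, held 0 Ccr4 UMIs in both libraries, which allows up to 0.512 CPM in EV and 1.10 CPM in WT. They held 1 and 2 Ccr8 UMIs. Within T cells Ccr4 was highest in the cluster led by Il17a (101 ± 32.7 CPM in EV, 88.1 ± 45.6 CPM in WT), and next in CD4 T cells without Foxp3 (94.6 ± 59.8 and 55.9 ± 23.4 CPM). Foxp3 T cells followed (67.5 ± 37.2 and 26.7 ± 22.6 CPM), and these 3 overlapped. The CD4 and Foxp3 gates were drawn from all T cell clusters, so each can share cells with a cluster named here or below. CD8 T cells without Foxp3 stood below all of them, at 0 to 1.98 CPM in EV and 0 to 2.87 CPM in WT replicates.

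Ccr8 had its higher levels in the cluster led by Penk, Il10 and Il2ra, which also lists Foxp3 among its leading genes (42.8 ± 9.57 CPM in EV, 28.7 ± 12.3 CPM in WT), and in Foxp3 T cells (20.3 ± 5.55 and 33.9 ± 28.6 CPM). CD4 T cells without Foxp3 stood at 21.4 ± 11.9 and 15.7 ± 23.8 CPM and overlapped both. Few single cells held both receptors. Of Foxp3 T cells, 5 of 88 in EV and 2 of 45 in WT had a UMI of Ccr4 and of Ccr8. Ccr4 alone was found in 22 and 6 of these cells, and Ccr8 alone in 3 and 9. Of the Foxp3 T cells with Ccr8, 62.5% in EV and 18.2% in WT thus also held Ccr4. Cells with both receptors were deeper (median 27084 UMIs in EV and 26370 in WT) than the rest (5044 and 7477). With so few and such deep cells, these counts cannot show whether the 2 receptors lie in separate cells.

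Foxp3 T cells were compared with the other T cells of the same replicate, with the replicate as a block. Other T cells are all those without a Foxp3 UMI, cells of the Penk and Il10 cluster included. Ccr4 stood in Foxp3 T cells at 47.5, 110.4 and 44.5 CPM (EV h1, h7 and h8) and 18.3, 9.47 and 52.2 CPM (WT h3, h5 and h9). In other T cells it stood at 18.2, 33.5 and 12.9 CPM and at 10.7, 3.83 and 10.9 CPM. It was higher in Foxp3 T cells in 6 of 6 replicates, with a log2 fold change of 1.55 ± 0.31 (edgeR adjusted p = 0.000382). Ccr8 stood at 14.0, 24.5 and 22.3 CPM and at 12.2, 66.3 and 23.2 CPM in Foxp3 T cells. In other T cells it stood at 12.4, 11.7 and 16.0 CPM and at 0.629, 8.63 and 2.19 CPM. It was higher in Foxp3 T cells in 6 of 6 replicates, with a log2 fold change of 1.47 ± 0.46 (edgeR adjusted p = 0.0293). With Ccl1, below, 3 of the 5 members tested passed, against 12.0% of 10730 genes, 703 of them higher and 586 lower in Foxp3 T cells. With TMM scaling these counts were 448 and 846, and the median over all genes moved from 0.04 to -0.11.

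Ccl1, a ligand of CCR8, was called lower in Foxp3 T cells over both groups together, but its mean was not lower in EV. It stood at 14.0, 0 and 84.6 CPM in EV Foxp3 T cells and at 0 in all 3 WT replicates. In other T cells it stood at 8.28, 18.7 and 52.1 CPM in EV and at 76.8, 381 and 26.2 CPM in WT. Its log2 fold change was -1.72 ± 0.52 (edgeR adjusted p = 0.0251), lower in 4 of 6 replicates and higher in EV h1 and h8. In EV its mean was 32.9 CPM in Foxp3 T cells and 26.3 CPM in other T cells, so the call rests on WT. Of the 24 Ccl1 UMIs in EV Foxp3 T cells, 18 lay in 1 cell, so that EV mean depends largely on 1 cell. Ccr7 differed by 0.68 ± 0.32 (edgeR adjusted p = 0.184), higher in 3 of 6 replicates. Ccl22 differed by 2.11 ± 0.86 (adjusted p = 0.111) on 15 UMIs in Foxp3 T cells, 14 of them in 1 EV cell, and Ccl17 was too sparse to be tested.

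These calls depend on who is compared. Against CD4 T cells without Foxp3, Ccr4 was higher in Foxp3 T cells in 1 of 6 replicates (47.1 ± 35.5 against 75.2 ± 45.8 CPM, mean ± SD, n = 6), and Ccr8 in 5 of 6 (27.1 ± 19.9 against 18.6 ± 17.1 CPM). With regulatory T cells taken by any 2 of 4 genes in place of a Foxp3 UMI, the log2 fold change of Ccr4 was 0.17 (adjusted p = 0.707) and Ccl1 was called in the opposite direction (4.02, edgeR adjusted p = 4.8e-07). Without WT h3 or WT h5, the calls of Ccr8 (1.26 and 1.14) and Ccl1 (-1.18 and -0.94) were lost, and without WT h9 that of Ccr8 (1.32). DESeq2 did not call Ccl1 either (-3.90, adjusted p = 0.0929).

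Related genes were read from the same fit. Of 23 regulatory T cell genes, all tested, 19 rose (median log2 fold change 1.96, against 0.04 over all genes). Foxp3 is among them and chose the cells, so it is no result. The others included Lrrc32 (5.23 ± 0.41), which presents TGF-β, Il2ra (3.39 ± 0.22), the high-affinity IL-2 receptor chain, and Ebi3 (3.17 ± 0.40), an IL-35 subunit. Of 13 naive and central memory genes 12 were tested, 9 fell and 1, Ccr9, rose (median -1.81). Dapl1 (-6.18 ± 1.42), Tcf7 (-4.34 ± 0.37), Bach2 (-3.13 ± 0.46) and Klf2 (-2.20 ± 0.21) changed most in it. Of 12 other chemokine receptors 7 were tested and 5 rose, among them Ccr3 (3.35 ± 0.82), Ccr9 (2.60 ± 0.27), Ccr6 (2.15 ± 0.69) and Ccr2 (1.17 ± 0.28). Of 17 other CC chemokines 8 were tested. Ccl3 (-3.37 ± 0.37), Ccl5 (-3.16 ± 0.25) and Ccl4 (-2.15 ± 0.37), which cytotoxic T cells make, fell, and Ccl9 (4.73 ± 0.70) rose. Of 25 dendritic cell activation genes 20 were tested and 11 rose (median 0.98), with Il12b (4.75 ± 1.10), Csf2rb (3.94 ± 0.71), Ebi3 and Cd80 (2.10 ± 0.50) changed most. The mature dendritic marker list ran from 161 to 263 CPM in Foxp3 T cells and from 52.4 to 108 CPM in other T cells, with Apol7c at 0 in both, and its part in these values was not tested.

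**Figure D4:**
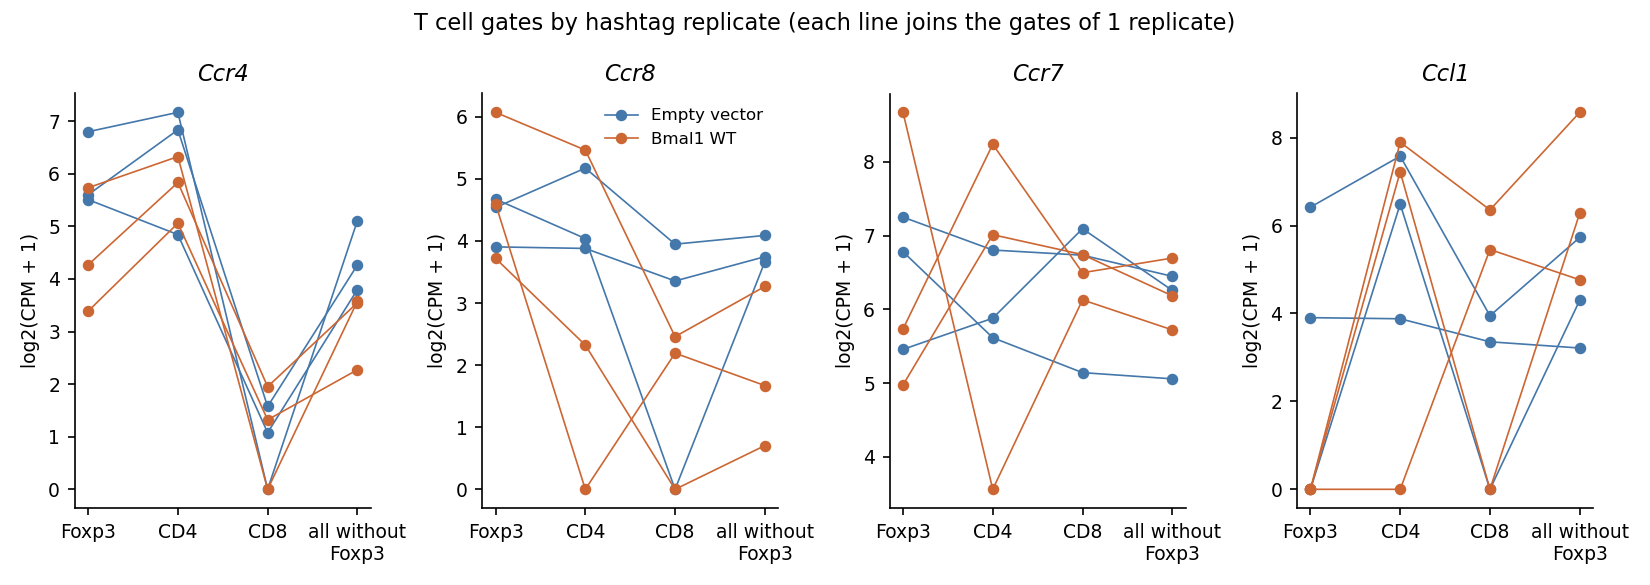
Ccr4, Ccr8, Ccr7 and Ccl1 as log2(CPM + 1) in T cells with Foxp3, CD4 and CD8 T cells without Foxp3, and all T cells without Foxp3, with a line for each of the 3 EV (blue) and 3 WT (orange) replicates. Ccr4 is low in CD8 T cells in all 6 replicates, and Ccl1 is at 0 in the Foxp3 T cells of 3 WT replicates and 1 EV replicate.

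Ccl1 was a T cell transcript held by few cells. T cell-like cells gave 95.7% of its UMIs in EV and 88.9% in WT, 199 UMIs in 34 cells and 609 UMIs in 19 cells. A single WT h5 cell of the Penk and Il10 cluster held 321 of the 609. Without the top cell of each library, other T cells stood at 16.3 CPM (13.3 to 19.8) in EV and 90.1 CPM (80.0 to 101) in WT. These intervals do not cover the spread between cells, which was large. The top 5 cells held 68.3% of T cell-like Ccl1 UMIs in EV and 85.2% in WT. T cell-like WT cells with several hashtags, which belong to no replicate, held 78 Ccl1 UMIs in 3 cells. Dendritic classes held 0 Ccl1 UMIs in both libraries, which allows up to 1.70 CPM in EV and 2.62 CPM in WT mature dendritic cells.

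WT and EV were then compared within each T cell gate. In Foxp3 T cells, Ccr4 overlapped between groups at the replicate levels above, with a log2 fold change of -1.22 ± 0.54 (edgeR adjusted p = 0.817). Ccr8 differed by 0.49 ± 0.67 and Ccr7 by 0.36 ± 0.65 (adjusted p = 0.943 and 0.971). Ccl1 had 24 UMIs in 5 EV cells, with 18 of these UMIs in 1 cell. It had 0 UMIs in WT, which allows up to 4.89 CPM against 30.8 CPM in EV. Its difference did not pass (edgeR adjusted p = 0.697). edgeR called 0% of 7176 genes and DESeq2 called 0, and no member passed. At an unadjusted p of 0.05 the test called 2 of 4 members and 5.92% of all genes (425), and replicate levels did not overlap for 0 of 4 members and for 11.5% of all genes. Summed cDC2, cDC1 and mature dendritic markers were lower in WT Foxp3 T cells without overlap, and their part was not tested. The cDC2 list stood at 0 to 37.9 CPM against 55.2 to 101 CPM in EV. Of its 10 genes 5 were detected, and Cd209a, Mgl2 and Clec10a were among those at 0. The cDC1 list includes Itgae, which is also in the regulatory T cell list.

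In other T cells the replicates of EV and WT did not overlap for either receptor, but neither difference passed. Ccr4 stood at 12.9 to 33.5 CPM in EV and 3.83 to 10.9 CPM in WT, a log2 fold change of -1.29 ± 0.45 (edgeR adjusted p = 0.198). Ccr8 stood at 11.7 to 16.0 CPM in EV and 0.629 to 8.63 CPM in WT, a log2 fold change of -1.87 ± 0.58 (adjusted p = 0.166 by edgeR). Ccl1 overlapped between groups, with a log2 fold change of 2.65 ± 0.74 (edgeR adjusted p = 0.133), and the single WT h5 cell is part of it. Ccr7 differed by 0.17 ± 0.33 (adjusted p = 0.844).

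The background of that comparison was high. 0 of 4 members passed, against 0.0859% of 10483 genes. At an unadjusted p of 0.05 the test called 3 of 4 members and 16.5% of all genes, and replicate levels did not overlap for 2 of 4 members and for 20.7% of all genes. Of 23 regulatory T cell genes 22 were tested and 3 fell: Il1rl1 (-4.65 ± 0.61), the IL-33 receptor, Il10 (-3.94 ± 0.46) and Icos (-1.05 ± 0.16). The ILC2 marker list, 9 of 9 genes detected, summed to 372 to 797 CPM in EV and 107 to 188 CPM in WT. It shares Il1rl1 and Gata3 with the regulatory T cell genes, so the 2 lists are not independent. The mature dendritic list, 9 of 10 detected with Apol7c at 0, summed to 70.1 to 108 CPM and 52.4 to 60.4 CPM. The part of either list in Ccr4 and Ccr8 was not tested.

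The difference of the Foxp3 contrast between WT and EV was tested as an interaction, which called 0.0839% of genes. Ccl1 passed at -9.96 on the log2 scale (edgeR adjusted p = 2.34e-07), a value that rests on 0 UMIs in WT Foxp3 T cells and is no estimate of size. The share of Foxp3 T cells with a Ccl1 UMI was 5.60% ± 5.22 in EV and 0% in WT (SD, n = 3, two-sided exact permutation p = 0.4, adjusted p = 0.8). Ccr8 differed by 2.70 ± 0.91 (adjusted p = 1.0 by edgeR) and the other 3 members tested had an adjusted p of 1.0.

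Shares of cells with a UMI were compared by two-sided exact permutation tests, which cannot go below 0.1 with 3 against 3. Of 16 tests the smallest p was 0.1, for Ccr8 in Foxp3 T cells, in 2 of 29, 3 of 20 and 3 of 31 cells of EV h1, h7 and h8 and 4 of 25, 4 of 9 and 3 of 10 cells of WT h3, h5 and h9 (exact permutation, adjusted p = 0.686). After each cell was thinned to 2000 UMIs, which kept 81 of 88 EV and 45 of 45 WT cells, the shares were 4.0% in EV and 3.70% in WT. Thinning left a Ccr8 UMI in only 3.70% of the pooled EV cells and 2.22% of the pooled WT cells. With so few such cells it cannot show whether the shares differ at matched depth. In mature dendritic cells the Ccl17 share was 62.8% ± 12.5 in EV and 69.7% ± 2.65 in WT (SD, n = 3, exact permutation p = 0.5).

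Over all cells of a replicate, where fewer cells of a type and less RNA per cell cannot be told apart, all 6 members were tested. Ccr4 stood at 5.47, 12.3 and 3.98 CPM in EV and 2.35, 1.02 and 3.01 CPM in WT, and its log2 fold change was -1.79 ± 0.57 (edgeR adjusted p = 0.180). Ccr8 stood at 3.20, 3.67 and 4.18 CPM and at 0.613, 1.94 and 1.29 CPM, with -1.51 ± 0.45 (edgeR adjusted p = 0.176). Ccr7 stood at 160.6, 185 and 169.8 CPM and at 154.6, 108 and 111 CPM, with -0.46 ± 0.16 (edgeR adjusted p = 0.193). The replicates of these 3 receptors did not overlap between groups. The ligands overlapped, at -0.16 ± 0.33 for Ccl22, -0.54 ± 0.56 for Ccl17 and 1.65 ± 1.01 for Ccl1.

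None of the 6 passed over all cells, where edgeR called 0% of 14522 genes and DESeq2 called 859. At an unadjusted p of 0.05 the test called 3 of 6 members and 22.0% of all genes (3197), and replicate levels did not overlap for 3 of 6 members and for 31.1% of all genes. T cell-like cells made up 31.5% to 35.5% of cells in EV replicates and 22.4% to 24.8% in WT replicates, and mature dendritic cells 4.31% to 4.45% and 4.60% to 7.68%. The part of these shares in the receptor sums was not tested.

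**Figure D5:**
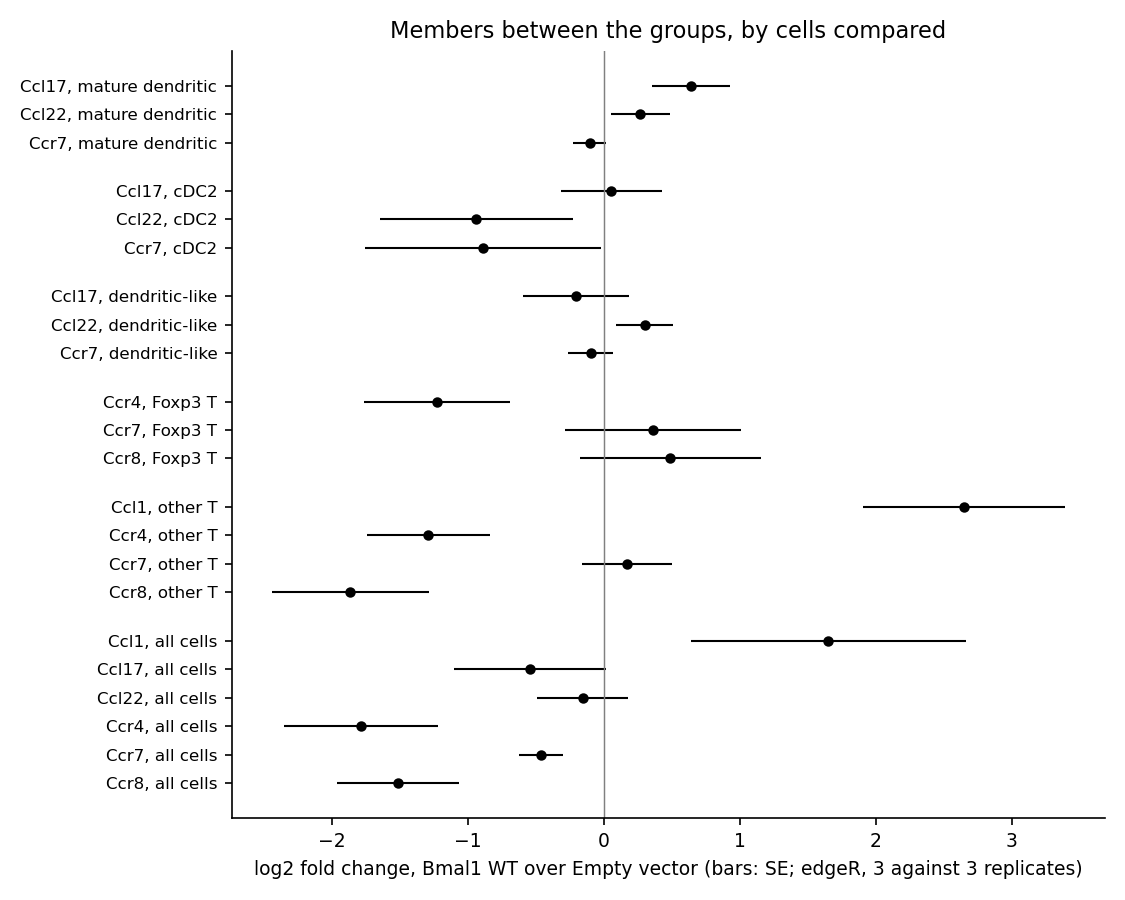
Log2 fold change of WT over EV for each gene with enough UMIs in each set of cells, with bars for the SE (edgeR, 3 against 3 replicates). No value passed an adjusted p of 0.05, and Ccr4 lies below 0 in Foxp3 T cells, other T cells and all cells. Ccl1 in Foxp3 T cells is left out because WT held 0 UMIs.

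Genes of like pattern were sought over 17 sums, 1 for each class and library with at least 20 cells, by the Pearson correlation of log2(CPM + 10). The sums share libraries and base composition, and the few classes that hold a member set its value, so this is a description over 13058 genes. Ccl17 was followed by Htr7 (0.986), Cd86 (0.985), Bcl2a1a (0.979), Cxcl16 (0.971) and Pik3r6 (0.967). Ccl22 was followed by Aldh1a2 (0.966), which makes retinoic acid, Gca (0.963), Mab21l3 (0.960), Mmp25 (0.954) and Asl (0.95). Ccr7 was followed by Cxcr5 (0.964), Mir155hg (0.959), Scin (0.956), H2-Eb2 (0.956) and Ikzf4 (0.955).

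The T cell members had sparser partners. Ccr4 was followed by Cd40lg (0.991), Vmn2r96 (0.989), B4galnt4 (0.988), Il13 (0.986) and A630023P12Rik (0.985), each with under 200 UMIs in these sums. Ccr8 was followed by Actn2 (0.996), Il13 (0.992), A630023P12Rik (0.989), Vmn2r96 (0.986) and Ccr4 (0.984). Ccl1 was followed by Gzmf (0.992), Ttn (0.981), Tff1 (0.961), Zbtb32 (0.956) and 1700097N02Rik (0.941). Among members, Ccl22 went with Ccr7 at 0.860 and with Ccl17 at 0.802, and Ccl17 with Ccr7 at 0.514. Ccl1 went with Ccr8 at 0.80 and about as closely with Ccr4, at 0.789, so its value with Ccr8 is not particular to that pair.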

How the data were processed

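Single-cell libraries (10x 3′ v3.1 chemistry) labelled YUMM2.1, EV and WT, each with 3 hashtags, were analysed. The authors deposited raw UMI counts per gene and barcode, made with Cell Ranger 6.1.2 on mm10 per the file headers and the submitters' processing notes. The gene annotation, strand setting and any doublet removal are not given in the sources used here. Reads shared between near-identical genes would move counts, and none of the 6 genes overlaps another in GENCODE vM21.

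Cells with at least 200 genes and at most 20% mitochondrial UMIs were kept. A hashtag was called above a minimum between its 2 count modes, and cells with no or several hashtags entered pooled levels but no replicate. Doublets were not removed in the main results, and cells with the top 5% of Scrublet scores were left out in an alternative. Clustering (scanpy 1.11.5, 2000 variable genes, 30 components, 15 neighbours, resolution 1) left out the 6 genes. A cluster took a class with at least 3 markers raised 2-fold or more. The rules that ILC2 markers not name a T cell cluster, and that a class needs a marker among the top 10 genes or 0.75 of its markers raised, were set after the clusters were seen. The genes, lists and tests were chosen with earlier results of these data known.

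UMIs were summed per hashtag replicate and tested with edgeR 4.0.16 (quasi-likelihood, library size as total UMIs, genes with at least 20 UMIs, Benjamini-Hochberg at 0.05), in R 4.3.3. SE is the size of the log2 fold change over the root of F. Foxp3 T cells and other T cells of a hashtag come from the same sample, so the replicate was a block in that fit. Named genes were the 6 members and, from each list, up to 4 called genes each way, or the 2 with the most UMIs. On simulated counts with 200 genes changed by 3 on the log2 scale, the test recovered 97.5% in mature dendritic cells (7774 genes, 3 false calls), 99% in other T cells (10483 genes, 7 false) and 94.5% for Foxp3 against other T cells (10730 genes, 8 false). The simulation gave all genes a common dispersion, so it does not show the power for smaller changes or for the members. Alternatives covered scaling, DESeq2 1.42.0, filters, hashtag calling, clustering, gates and each replicate left out. T cells by Cd3 UMIs, the cDC2-like comparison and the fit without the cluster led by Penk and Il10 were chosen after seeing the data. A gene of the receptor list and an allele of the line are not reported here.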

Additional observations from a re-analysis of the deposited data

Results flagged for a closer look

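Ccl1 passed the test of whether the contrast of Foxp3 T cells with other T cells differs between WT and EV: WT minus EV was -9.96 on the log2 scale (edgeR interaction term, adjusted p = 2.34e-07). In EV, Foxp3 T cells held 24 UMIs of Ccl1 in 5 cells, with 18 of these UMIs in 1 cell. In WT they held 0 UMIs over 45 cells. The value sets a gate with no UMI against other T cells in which 1 WT cell held 321 of 609 UMIs, so it is no estimate of size. It was not refitted under the alternatives, and the share of Foxp3 T cells with a Ccl1 UMI, 5.60% in EV and 0% in WT, did not pass (two-sided exact permutation p = 0.4, adjusted p = 0.8).

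Cells in which no hashtag or several hashtags were called belong to no replicate and enter no comparison, and they also held the members. Over both libraries such cells held 98 UMIs of Ccl1, 918 of Ccl17, 1034 of Ccl22, 24 of Ccr4, 694 of Ccr7 and 11 of Ccr8. There were 388 EV and 660 WT cells with none, and 368 EV and 105 WT cells with several.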

How the results depend on the processing

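Of 477 refitted log2 fold changes of members, 430 kept their direction and their side of an adjusted p of 0.05, 21 reversed, 12 passed anew and 14 lost a call, and 14 of 16 share differences kept their direction. The cause of a change was not tested. The 45 WT Foxp3 T cells held 16 Ccr4 and 15 Ccr8 UMIs, which limits the precision of both.

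With no filter on genes, members passed that did not with the filter: Ccl17 in mature dendritic cells (0.64), Ccl22 in cDC2-like cells (-0.94), Ccl1 in Foxp3 T cells (-5.92, from 0 UMIs in WT), Ccr4, Ccr8 and Ccl1 in other T cells (-1.29, -1.87 and 2.65) and Ccr7 between Foxp3 and other T cells (0.68). With regulatory T cells taken by 2 of 4 genes, WT against EV reversed for Ccr8 (-1.01) and Ccl1 (2.09) in that gate, while against other T cells Ccr4 lost its call (0.17) and Ccl1 and Ccr7 reversed and were called (4.02 and -1.48). Without the cluster led by Penk and Il10, Ccr4 in Foxp3 T cells reversed (0.036) and Ccl22 and Ccr7 passed between the gates (3.02 and 1.09). Without the top Scrublet scores, Ccl22 over all cells reversed (0.062). With T cells taken by Cd3 UMIs, Ccl22 and Ccr7 reversed between the gates (-1.74 and -0.25) and Ccr8 and Ccl1 lost their calls (1.18 and -2.15). Ccl1 also lost its call in DESeq2 (-3.90), with at least 100 UMIs per gene (-1.71) and under the stricter cell filter (-1.23), and Ccr8 at resolution 2 (1.25). Thinned to 2000 UMIs, the WT minus EV share of Foxp3 T cells reversed for Ccr8 (-0.299 points) and Ccr7 (-2.19 points).

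Without the replicate block, Ccl22 passed between the gates (2.48) and Ccr8 and Ccl1 lost their calls (1.31 and -2.06). Of the 15 Ccl22 UMIs of Foxp3 T cells, 14 lay in 1 EV cell. The labels link no EV replicate to a WT replicate, so the comparisons between EV and WT could not be paired.

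Leaving out each replicate in turn gave log2 fold changes over all cells of -0.40 to 0.28 for Ccl22 and -0.96 to 0.018 for Ccl17, and over all dendritic classes of -0.57 to 0.082 for Ccl17 and -0.27 to 0.071 for Ccr7. In cDC2-like cells they were -0.34 to 0.39 for Ccl17 and -3.21 to 0.024 for Ccl22. In Foxp3 T cells they were -0.22 to 1.08 for Ccr8 and -1.41 to 1.03 for Ccr7, and in other T cells -0.18 to 0.48 for Ccr7, -3.67 (without WT h5) to -1.05 (without WT h3) for Ccr8 and 1.14 (without WT h5) to 3.76 (without EV h8) for Ccl1. Ccl1 over all cells ran from 0.33 (without WT h5) to 2.75 (without EV h8), and Ccr7 in cDC2-like cells reached -4.05 without WT h3. Between the gates they were 1.14 to 1.85 for Ccr8, -3.71 to -0.94 for Ccl1 and 0.17 to 0.995 for Ccr7 (called without WT h3 or h9), and 1.46 to 1.68 for Ccr4, which was called each time. Without EV h7 both ligands over all cells changed sign, and without WT h5 both Ccr8 and Ccr7 in Foxp3 T cells did.

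The number of genes called by WT against EV moved with the settings. DESeq2 called 859 over all cells, 2 in mature dendritic, 157 in all dendritic, 10 in cDC2-like and 173 in other T cells. With no filter on genes the counts were 35, 454, 130, 24 and 587 in mature dendritic, all dendritic, cDC2-like, Foxp3 and other T cells. Hashtags by the highest centred log count gave 649 over all cells. TMM scaling gave 70 in all dendritic and 14 in other T cells. Without the top Scrublet scores they were 0 in all dendritic and 2 in other T cells. Other T cells also gave 3 with no cell filter, 1 at resolution 2, 2 with the 2 of 4 gene gate (14 in Foxp3 T cells), and 0 by Cd3 UMIs and without the cluster led by Penk. Between the gates the 2 of 4 gene gate gave 2117 and Cd3 UMIs 787. With a replicate left out the counts were 0 to 1 in all dendritic, 0 to 24 in cDC2-like, 0 to 3 in Foxp3 and 0 to 68 in other T cells.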
